A study of Rattus norvegicus with 24 samples.

Results

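Lung RNA was compared between rats exposed to 20 mg/mL and rats exposed to 5 mg/mL of WCSC, a condensate of whole-cigarette smoke, for 12 days. The 6 libraries, 3 per dose, were taken by the dose and day in their labels from the 24 libraries of the series, and all genes in the files were considered. In edgeR, 0 of 11421 genes tested passed an adjusted p of 0.05 between the doses, and 408 genes (3.57%) had an unadjusted p under 0.05. Among the genes with the smallest p, Zbtb16, Fkbp5 and Angptl4, which glucocorticoids are known to induce, had higher levels at 20 mg/mL, and their differences were larger without the one library that stood apart. Of 25 tested glucocorticoid-induced genes 16 were higher, at a median log2 fold change of 0.097, beside 50.7% of all genes and a median of 0.0053. Cebpd, of the same list, was lower at 20 mg/mL (log2 fold change -0.66, and -0.55 without that library). All 8 tested genes of the mesothelium, the lining of the lung surface, were lower, but by the list's mean level control lungs overlapped with both doses. Of 15 B and plasma cell genes 13 were higher at a median of 1.05, which was 0.18 without that library, and control lungs reached the same levels. Heart muscle genes and some airway genes were far higher in that library, replicate 2 of 20 mg/mL, than in the other 5, and it held the highest value for 220 of the 270 genes that were higher at an unadjusted p under 0.05.

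The series asked how repeated exposure to the condensate affects the lung in a rat model. It holds 8 groups of 3 lung samples, a control and 5, 10 and 20 mg/mL, each at 6 and 12 days. All rats are labelled wild type, and the labels give neither strain, sex nor age, nor the route of exposure, nor the treatment of the controls. Nothing in the labels says that the 3 samples of a group came from separate animals, so p-values measure the spread between these samples, which may be technical.

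WCSC carries the particles and vapours of burnt tobacco. Polycyclic hydrocarbons in smoke can activate the aryl hydrocarbon receptor, which switches on Cyp1a1, and oxidants can activate the factor NRF2, which switches on Nqo1 and Hmox1. Glucocorticoids, the stress steroids of the adrenal gland, bind a nuclear receptor that is abundant in lung and that directly induces Fkbp5, Zbtb16, Tsc22d3 and Klf9. A piece of lung holds alveolar type I and type II epithelium, airway epithelium with club, goblet, ciliated and basal cells, capillary endothelium, fibroblasts, resident and recruited immune cells and, at its surface, mesothelium. In such bulk tissue, fewer cells of a type and less RNA per cell cannot be told apart.

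Total counts over the distinct gene symbols were 7767258, 6723057 and 6397612 in the 5 mg/mL libraries and 5102170, 4758014 and 8259981 in the 20 mg/mL libraries. The series ranged from 4758014, in replicate 2 of 20 mg/mL at 12 days, to 10989792. Surfactant gene Sftpc, the defining marker of alveolar type II cells, was between 9289.8 and 10925 CPM (reads scaled to library size, here by the TMM method of edgeR) in 5 of the 6 libraries. It was 3249 CPM in replicate 2 of 20 mg/mL, the library that stood apart. That library correlated with the other 5 at 0.907 to 0.919 (Pearson's r of log2 CPM across genes, which are not independent replicates), where pairs of the same dose had a median of 0.958. Results that rest on it are given with and without it.

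Between the doses, 270 genes (2.36%) were higher and 138 (1.21%) lower at 20 mg/mL with an unadjusted p under 0.05 in edgeR, and the smallest adjusted p was 0.999. The threshold alone would give 571 genes if none differed. All 3 libraries of 20 mg/mL lay above all 3 of 5 mg/mL for 611 genes (5.35%) and below them for 599 genes (5.24%). Other tools made few calls. DESeq2 called 6 genes (0.0526%), namely Rhoh, Sfrp2, Trdn, Krt15, Gp2 and Bpifa1, and gave 478 (4.19%) an unadjusted p under 0.05. Zbtb16 was the 1 call (0.00876%) of limma voom with weights for library quality, which gave 565 genes (4.95%) an unadjusted p under 0.05. Without replicate 2 of 20 mg/mL, 57 of the 270 higher genes and 47 of the 138 lower genes still had an unadjusted p under 0.05. Of the 94 higher genes that differed by more than 4-fold, 86 had their highest level in that library.

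**Figure D1:**
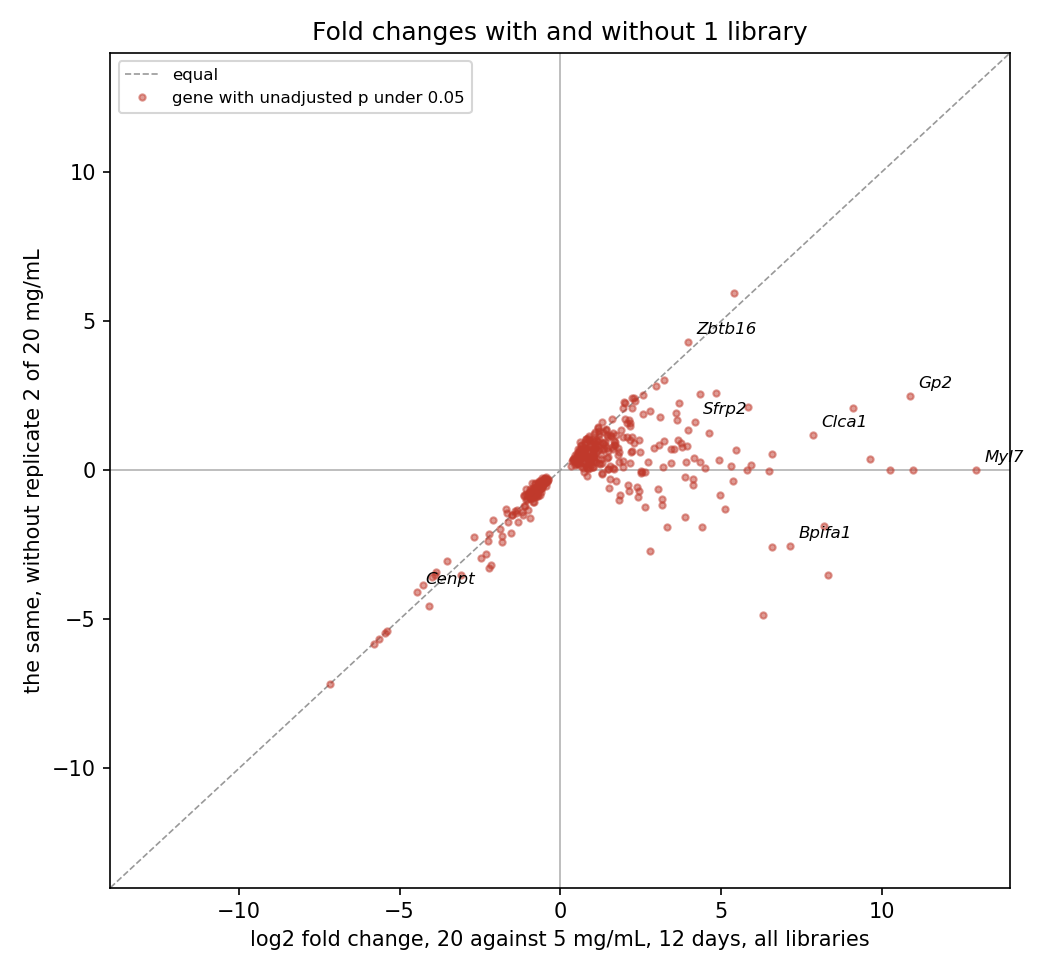
Log2 fold change of 20 against 5 mg/mL at 12 days with all 6 libraries (x axis) against the same without replicate 2 of 20 mg/mL (y axis), 1 point per gene with an unadjusted p under 0.05 in edgeR. Zbtb16 lies near the line of equal values, at 3.98 and 4.30, while Clca1 moves from 7.86 to 1.19 and Bpifa1 from 7.16 to -2.55. Genes with no reads left in the second fit, such as Myl7, lie at 0 on the y axis.

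Zbtb16, which encodes a zinc finger transcription factor, had 1.91, 2.56 and 8.16 CPM in the 3 libraries of 5 mg/mL and 96.0, 34.1 and 69.1 CPM in those of 20 mg/mL. Every library of 20 mg/mL lay above every library of 5 mg/mL. The log2 fold change was 3.98 (SE 1.05), with an unadjusted p of 0.00131 and an adjusted p of 0.999 in edgeR, and it was 4.30 without replicate 2 of 20 mg/mL. In limma voom the log2 fold change was 4.45 with an adjusted p of 0.00414, the only gene that this tool called, and in DESeq2 the adjusted p was 0.0764. Over the 6 fits that each left out 1 library, the log2 fold change ranged from 3.62 to 4.89. The libraries of 10 mg/mL held 26.4, 27.4 and 21.4 CPM and the controls 6.06, 3.43 and 4.72 CPM. The 10 mg/mL values thus lay between those of the other doses without overlap, and the controls overlapped with 5 mg/mL.

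Fkbp5, a co-chaperone that lowers the hormone affinity of the glucocorticoid receptor, had 24.7, 38.3 and 52.8 CPM at 5 mg/mL and 138, 44.5 and 101 CPM at 20 mg/mL. Replicates 1 and 3 of 20 mg/mL lay above all of 5 mg/mL, and replicate 2 lay inside their range. The log2 fold change was 1.29 (SE 0.39; unadjusted p = 0.00312, adjusted p = 0.999 in edgeR) and 1.63 without replicate 2. Angptl4, a secreted inhibitor of lipoprotein lipase, had 0.638, 2.56 and 3.71 CPM at 5 mg/mL and 5.15, 5.94 and 16.8 CPM at 20 mg/mL, with no overlap. Its log2 fold change was 2.03 (SE 0.62; unadjusted p = 0.00329) and 2.27 without replicate 2. The controls held 31.7, 26.5 and 22.5 CPM of Fkbp5 and 3.23, 2.71 and 0.971 CPM of Angptl4, below the 20 mg/mL libraries for both genes.

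The sequences around the start sites of Fkbp5 and Angptl4 are shown because these genes of the glucocorticoid list were higher together. RefSeq gives a 300-base window for Fkbp5 at chr20:6543506-6543805 and for Angptl4 at chr7:15258632-15258931 (build GRCr8, both on the minus strand), printed 5′ to 3′ along the gene. Capitals mark the GC-box GGGCGG, a binding sequence of Sp and Krüppel-like factors, on either strand.
Fkbp5: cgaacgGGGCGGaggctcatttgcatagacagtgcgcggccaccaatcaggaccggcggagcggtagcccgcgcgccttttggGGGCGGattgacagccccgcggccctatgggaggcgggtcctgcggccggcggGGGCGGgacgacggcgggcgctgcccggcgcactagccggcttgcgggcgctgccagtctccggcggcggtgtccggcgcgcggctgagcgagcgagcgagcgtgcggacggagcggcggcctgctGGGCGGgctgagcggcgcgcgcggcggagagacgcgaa
Angptl4: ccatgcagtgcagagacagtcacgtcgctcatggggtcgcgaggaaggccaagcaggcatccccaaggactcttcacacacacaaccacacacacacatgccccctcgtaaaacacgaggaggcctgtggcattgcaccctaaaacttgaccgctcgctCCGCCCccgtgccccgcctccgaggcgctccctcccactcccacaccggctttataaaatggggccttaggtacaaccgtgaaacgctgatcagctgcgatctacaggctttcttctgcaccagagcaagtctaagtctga
The Fkbp5 window held 4 GC-boxes and the Angptl4 window 1, and 33.1% of the 33469 RefSeq promoter windows of this length held at least 1. The palindromic glucocorticoid response element, searched on both strands as GNACA, any 3 bases and TGTNC, was in neither window and in 0.439% of all windows. Its half-site AGAACA was also in neither, against 20.7% of all windows. The window of Rhoh, described below, held none of the 3 motifs. These letters say nothing of sites outside the windows.

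The list of glucocorticoid-induced genes had a median near that of all genes. Counts over lists cover the members that passed the filter on low counts, here 25 of 30 listed. Of these, 16 were higher at 20 mg/mL and the median log2 fold change was 0.097, beside 50.7% of all genes higher and a median of 0.0053. With an unadjusted p under 0.05, 3 members were higher (Zbtb16, Fkbp5 and Angptl4) and 1 lower (Cebpd), beside 2.36% and 1.21% of all genes. Without replicate 2 of 20 mg/mL these counts were 3 and 0. Tsc22d3, the leucine zipper protein GILZ, was 237, 269 and 359 CPM at 5 mg/mL and 416, 214 and 304 CPM at 20 mg/mL. Klf9, a Krüppel-like factor, was 425, 421 and 573 CPM and 726, 375 and 476 CPM. The doses overlapped for both genes, with log2 fold changes of 0.11 and 0.15, as they did for the kinase gene Sgk1 (0.12) and the phosphatase gene Dusp1 (-0.48). The directions of Tsc22d3, Klf9 and Sgk1 turned when single libraries were left out.

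Cebpd, an inducible C/EBP factor, was lower at 20 mg/mL. It had 188, 163 and 255 CPM at 5 mg/mL and 142, 106 and 135 CPM at 20 mg/mL, with no overlap (log2 fold change -0.66, SE 0.27, unadjusted p = 0.0228, adjusted p = 0.999 in edgeR). Without replicate 2 of 20 mg/mL the log2 fold change was -0.55 (unadjusted p = 0.0881 in edgeR). Its neighbour in the RefSeq annotation, Spidr, which encodes a scaffold of DNA repair, had 53.2, 39.0 and 98.2 CPM at 5 mg/mL and 22.6, 32.6 and 32.6 CPM at 20 mg/mL. These groups did not overlap either (log2 fold change -1.12, SE 0.34; -1.20 without replicate 2). The strand setting of the counting is not given in the sources used here, so reads of the neighbours may not be separable.

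Klf10, a zinc finger factor induced by TGF-beta, was the member of the immediate-early list with the smallest p. It had 64.0, 38.0 and 57.0 CPM at 5 mg/mL and 129.6, 84.6 and 84.9 CPM at 20 mg/mL, with no overlap (log2 fold change 0.91, SE 0.27, unadjusted p = 0.00238 in edgeR; 1.02 without replicate 2). The controls had 33.8, 44.6 and 49.0 CPM and the 10 mg/mL libraries 85.1, 95.2 and 72.7 CPM, so that 10 and 20 mg/mL overlapped and both lay above control and 5 mg/mL. Of the 20 tested members of that list 13 were lower, and the median log2 fold change was -0.15.

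**Figure D2:**
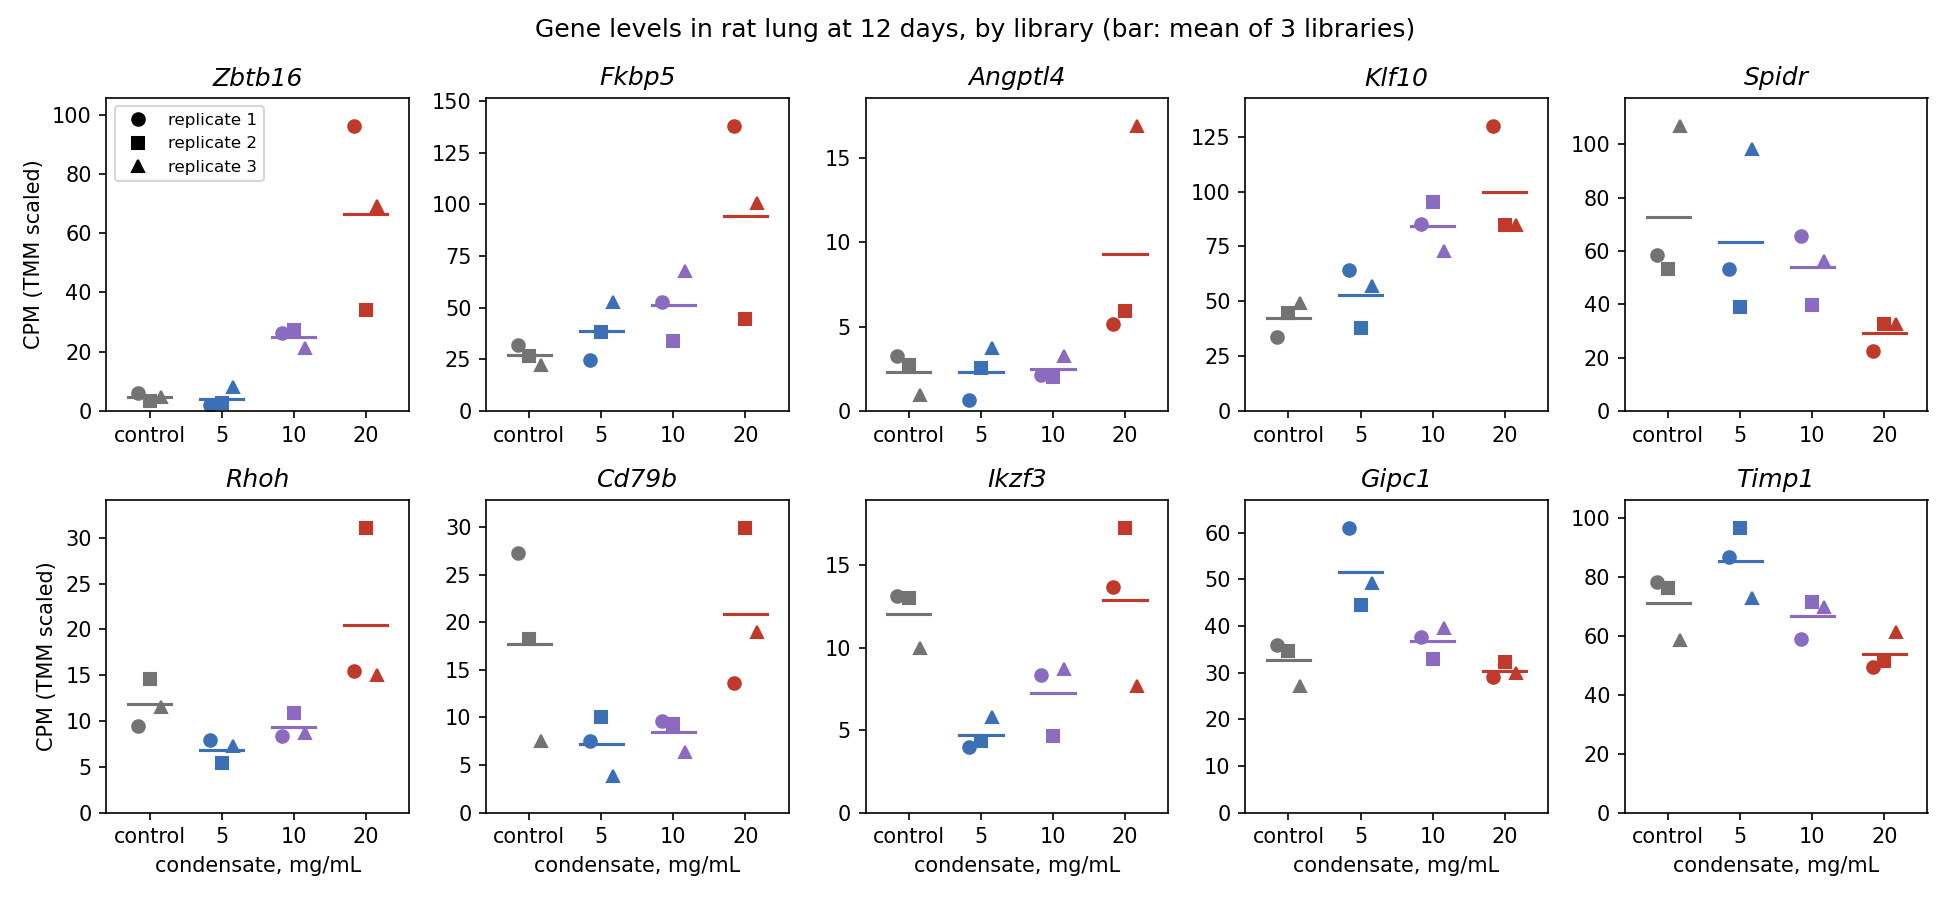
CPM (y axes, linear from 0) of 10 genes at 12 days in control lungs and at 5, 10 and 20 mg/mL (x axes), with 1 symbol per library, its shape giving the replicate number, and a bar at the mean of 3. Zbtb16 and Klf10 are higher in every library of 20 mg/mL than in any of 5 mg/mL, whereas for Cd79b and Ikzf3 the controls reach the levels of 20 mg/mL.

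B cell genes were mostly higher at 20 mg/mL. Of 15 tested B and plasma cell genes (22 listed), 13 were higher, 5 of them with an unadjusted p under 0.05. The median log2 fold change was 1.05 (0.18 without replicate 2). Of all genes tested, 50.7% were higher, and 2.36% were higher at that p. Mean log2 CPM of the list was 2.89, 3.01 and 2.72 at 5 mg/mL, 2.95, 4.52 and 3.33 at 20 mg/mL and 3.99, 3.88 and 3.39 in control. The 5 mg/mL libraries ranked 21, 18 and 24 of 24, and replicate 1 of 20 mg/mL lay inside their range. Cd79b, a signalling chain of the B cell receptor, had 7.53, 10.1 and 3.86 CPM at 5 mg/mL and 13.7, 29.9 and 19.0 CPM at 20 mg/mL (log2 fold change 1.54, SE 0.49; 1.19 without replicate 2). Fcer2, the low-affinity IgE receptor CD23 of B cells, had 4.98, 3.17 and 1.93 CPM and 7.32, 22.6 and 12.8 CPM (log2 fold change 2.07, SE 0.60; 1.58 without replicate 2). Neither gene overlapped between the doses. Their controls, at 27.3, 18.2 and 7.49 CPM and 12.9, 13.0 and 5.13 CPM, overlapped with 20 mg/mL. Ikzf3, the lymphoid transcription factor Aiolos, had 3.95, 4.37 and 5.79 CPM at 5 mg/mL, 13.7, 17.3 and 7.69 CPM at 20 mg/mL and 13.1, 13.0 and 9.99 CPM in control. Here too the doses were apart and the controls fell among the 20 mg/mL values. Ms4a1, the B cell surface protein CD20, overlapped between the doses, with 3.76, 14.8 and 11.2 CPM at 20 mg/mL against 2.42, 3.77 and 4.75 CPM at 5 mg/mL.

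Rhoh, a small GTPase-like protein of blood cells, had the smallest p of all genes in edgeR. It had 7.91, 5.43 and 7.27 CPM at 5 mg/mL and 15.4, 31.1 and 15.0 CPM at 20 mg/mL, with no overlap. The log2 fold change was 1.57 (SE 0.35, unadjusted p = 0.000192, adjusted p = 0.999 in edgeR) and 1.14 without replicate 2, and its DESeq2 adjusted p was 0.0457. Controls had 9.50, 14.6 and 11.5 CPM, between the doses. Fcmr, the receptor for IgM, had 14.8, 10.2 and 9.35 CPM at 5 mg/mL and 13.3, 47.0 and 31.1 CPM at 20 mg/mL, where replicate 1 fell inside the 5 mg/mL range.

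T and NK cell genes were also mostly higher. Of 25 tested (30 listed), 20 were higher, at a median log2 fold change of 0.50 (0.45 without replicate 2). Of these, 5 did not overlap and 2 had an unadjusted p under 0.05, beside 5.35% and 2.36% of all genes. Mean log2 CPM of the list was 3.10, 2.90 and 3.14 at 5 mg/mL and 3.47, 3.31 and 3.42 at 20 mg/mL, without overlap, and 2.96, 3.51 and 3.29 in control, which overlapped with both. Il2rb, a chain of the interleukin 2 and 15 receptors, had 38.1, 23.7 and 35.8 CPM at 5 mg/mL and 63.5, 42.6 and 61.1 CPM at 20 mg/mL, with no overlap. Txk, a T cell kinase of the Tec family that is on no list, had 7.53, 12.7 and 7.42 CPM and 20.8, 24.0 and 23.9 CPM, again with no overlap. Their log2 fold changes were 0.78 (SE 0.35) and 1.32 (SE 0.41). Of 17 mast cell genes, 16 were higher with a median of 0.58 (0.33 without replicate 2), but the summary level of that list, 3.22, 2.39 and 2.11 at 5 mg/mL and 2.45, 3.46 and 3.47 at 20 mg/mL, overlapped.

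Interferon-stimulated genes, the antiviral program, were higher by small amounts. Of 27 tested (30 listed), 21 were higher and the median log2 fold change was 0.25 (0.33 without replicate 2). Among the higher members, 1 had an unadjusted p under 0.05 and 4 did not overlap, beside 2.36% and 5.35% of all genes. Mx1, an antiviral GTPase, had 37.9, 38.3 and 42.3 CPM at 5 mg/mL and 66.7, 56.0 and 73.0 CPM at 20 mg/mL. Ifi27 had 643, 619 and 616 CPM and 799, 966 and 1149 CPM. Neither gene overlapped between doses, yet their unadjusted p-values in edgeR were 0.101 and 0.123. Irf9, a transcription factor of the interferon response, had 5.36, 1.81 and 6.82 CPM against 12.3, 11.3 and 6.96 CPM, with a log2 fold change of 1.12 (SE 0.50, unadjusted p = 0.0365).

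Of the 138 genes that were lower at 20 mg/mL, 21 differed by more than 4-fold, and 47 kept an unadjusted p under 0.05 without replicate 2. Gipc1, a scaffold that binds receptor tails, had 61.0, 44.5 and 49.1 CPM at 5 mg/mL and 29.1, 32.2 and 29.9 CPM at 20 mg/mL. The groups did not overlap, with a log2 fold change of -0.76 (SE 0.23, unadjusted p = 0.00316 in edgeR). Timp1, an inhibitor of matrix metalloproteases, had 86.6, 96.6 and 72.8 CPM and 49.3, 51.4 and 61.3 CPM (log2 fold change -0.66, SE 0.20). S100a11, a calcium-binding protein, had 46.3, 29.7 and 35.5 CPM and 22.6, 12.7 and 21.7 CPM (log2 fold change -0.97, SE 0.29). Neither overlapped. Control levels of S100a11 (23.4, 24.0 and 22.8 CPM) and Gipc1 (36.0, 34.7 and 27.2 CPM) lay at or near those of 20 mg/mL and below those of 5 mg/mL. Rmdn2 (-0.86), Megf6 (-0.91), the ribosome assembly factor gene Tbl3 (-1.08), the tetraspanin gene Cd151 (-0.59), the protease inhibitor gene Fetub (-0.93), the lipid transporter gene Abca2 (-0.99) and the actin regulator gene Nckap1 (-0.53) were the other log2 fold changes among the smallest p-values. All these genes were without overlap, as were 109 of the 138 lower genes. Cenpt, a centromere protein gene, had 11, 10 and 11 reads at 5 mg/mL and 0, 0 and 1 at 20 mg/mL, counts too low for a stable ratio. Hspa1b, an inducible heat shock protein gene, had 43.9, 199.7 and 58.0 CPM against 36.4, 37.0 and 24.8 CPM, where replicate 2 of 5 mg/mL was far above the rest.

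All 8 tested mesothelial genes (12 listed) were lower at 20 mg/mL. Of these, 1 had an unadjusted p under 0.05 and 4 did not overlap, beside 1.21% and 5.24% of all genes. The median log2 fold change was -0.86. Without replicate 2 it was -1.39, with 5 members at an unadjusted p under 0.05 and 1 member, Krt19, higher (0.029). Mean log2 CPM of the list was 5.25, 4.81 and 5.24 at 5 mg/mL and 3.33, 4.69 and 4.22 at 20 mg/mL, with no overlap, while controls held 4.36, 4.41 and 5.01 and 10 mg/mL libraries 5.07, 5.76 and 4.87. Controls thus overlapped with both doses. Aldh1a2, an enzyme of retinoic acid synthesis, had 79.7, 54.9 and 52.7 CPM at 5 mg/mL and 27.7, 32.6 and 37.7 CPM at 20 mg/mL (log2 fold change -0.93, SE 0.36, unadjusted p = 0.0155 in edgeR). The membrane protein gene Gpm6a had 67.1, 70.5 and 78.3 CPM and 10.9, 59.6 and 37.7 CPM, and Upk1b, a uroplakin gene, 13.5, 16.9 and 13.6 CPM and 0.990, 7.29 and 7.69 CPM. These 3 genes and Nkain4 did not overlap between the doses. Msln, the surface protein mesothelin, had 39.7, 33.6 and 56.4 CPM against 7.52, 71.5 and 12.8 CPM, so that replicate 2 of 20 mg/mL was above all of 5 mg/mL and the other replicates below. Its log2 fold change moved from -0.50 to -2.07 without replicate 2. How much pleura each piece of lung carried is not in the labels, and its part in these differences was not tested.

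Replicate 2 of 20 mg/mL carried RNA that the other 5 libraries held little of. Of 33 listed heart muscle genes, 22 passed the filter on low counts. All 22 were higher at 20 mg/mL at an unadjusted p under 0.05, beside 2.36% of all genes, with a median log2 fold change of 5.24. The doses were without overlap for 0 of the 22, beside 5.35% of all genes higher without overlap. Without this library 8 of 22 were higher, 0 of them at that p, and the median was -0.16. In that fit Myl7 and Myh7 had no reads left and entered at a log2 fold change of 0. Mean log2 CPM of the list was 7.15 in this library and 0.39 to 0.84 in the other 5. Of all 24 libraries it ranked 1, followed by replicate 3 of 20 mg/mL at 6 days (3.02) and replicate 2 of the 12-day controls (2.79). Myl7, the atrial myosin light chain, had 423 CPM there and no read in the other 5, at least 845-fold higher at 20 mg/mL against a floor of 3 reads over the 5 mg/mL group. Myh6, the alpha myosin heavy chain of heart, had 495 CPM against at most 0.594 CPM in the other 5. Tnni3, the cardiac troponin I, had 649 CPM against at most 10.2 CPM, and Actc1, the cardiac actin, 1031 CPM against at most 107 CPM. The sarcoplasmic reticulum genes Trdn and Hrc were at 106 and 122 CPM in this library and at most 6.83 and 1.71 CPM elsewhere. The muscle gene Dhrs7c (22.2 CPM) and the cytochrome oxidase gene Cox8b (66.2 CPM) also peaked there.

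Some airway genes were high in the same library. Of 19 tested club and goblet cell genes 12 were higher at 20 mg/mL, 6 of them with an unadjusted p under 0.05, beside 2.36% of all genes. The median log2 fold change of the list was 0.20 (-0.029 without this library). The list had a mean log2 CPM of 7.77 in replicate 2 and 5.07 to 5.59 in the other 5. Bpifa1, a secreted protein of the large airways, had 12.4, 14.9 and 27.7 CPM at 5 mg/mL and 0.792, 7873 and 5.00 CPM at 20 mg/mL. Replicates 1 and 3 of 20 mg/mL lay below all of 5 mg/mL, and the log2 fold change of 7.16 turned to -2.55 without replicate 2. Clca1, of goblet cells, had 0.638, 0.603 and 0.445 CPM and 0, 403 and 2.44 CPM, and Krt15, a keratin of basal cells, 3.83, 3.01 and 4.15 CPM and 6.93, 108 and 5.25 CPM. Tmc5 was at 35.9 CPM in replicate 2 and at most 1.83 CPM in the others. Scgb1a1, the abundant secretory protein of club cells, was not high there, with 15736, 17844 and 7141 CPM at 5 mg/mL and 13344, 9099 and 10008 CPM at 20 mg/mL, where replicate 2 was the lowest of its group (log2 fold change -0.33). Pigr, the receptor that carries IgA across the epithelium, was the 1 member of the list that was lower with an unadjusted p under 0.05 (log2 fold change -0.45). Of 16 ciliated cell genes 14 were higher, with a median log2 fold change of 1.11 that was 0.042 without this library. Of 10 adipocyte genes 8 were higher, and the median moved from 1.39 to 0.21. Gp2, a membrane glycoprotein gene that DESeq2 called, had 533 reads in replicate 2, 1 in replicate 1 and none in the other 4 libraries.

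Matrix and cell cycle genes were also highest in replicate 2 by the summary level of their lists, while the list medians between the doses lay near 0. Mean log2 CPM was 7.58 in replicate 2 and 6.80 to 7.05 in the other 5 for the matrix and fibroblast list, and 4.17 against 3.51 to 3.69 for the cell cycle list. Of 28 matrix and fibroblast genes 17 were higher, with a median log2 fold change of 0.083 (-0.22 without replicate 2), and of 36 cell cycle genes 18 were higher, with a median of -0.0068 (-0.14 without it). Col1a1, type I collagen, was 1043, 1108 and 954 CPM at 5 mg/mL and 853, 8682 and 759 CPM at 20 mg/mL, so that only replicate 2 was above 5 mg/mL. Sfrp2, a secreted Wnt antagonist, had 5.10, 11.0 and 6.82 CPM and 15.8, 369.7 and 30.4 CPM with no overlap, and its log2 fold change of 4.18 was 1.61 (unadjusted p = 0.0249 in edgeR) without replicate 2. The metalloprotease gene Mmp23 (7.14, 8.59 and 6.23 CPM and 12.1, 43.3 and 14.5 CPM) likewise did not overlap, with a log2 fold change of 1.67 that was 0.86 without it. Aurkb, a mitotic kinase, was at 50.2 CPM in replicate 2 and at most 7.08 CPM in the others.

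Alveolar genes were low in this library. Of 16 tested surfactant and alveolar type II genes, 15 were lower at 20 mg/mL, with a median log2 fold change of -0.34 that was -0.091 without it. Mean log2 CPM of this list was 9.31, 9.31 and 9.33 at 5 mg/mL and 9.18, 8.26 and 9.19 at 20 mg/mL. All 3 libraries of 20 mg/mL were below all of 5 mg/mL, but replicates 1 and 3 by little. Sftpb, surfactant protein B, had 3630.2, 3562 and 3772 CPM and 3353, 1367 and 2883 CPM, with no overlap and an unadjusted p of 0.0576 in edgeR. Sftpc had 9636, 9984 and 10702 CPM and 9289.8, 3249 and 10925 CPM, and its log2 fold change of -0.37 was 0.00 without replicate 2. Endothelial genes had a median of -0.14 with all libraries and 0.16 without it.

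**Figure D3:**
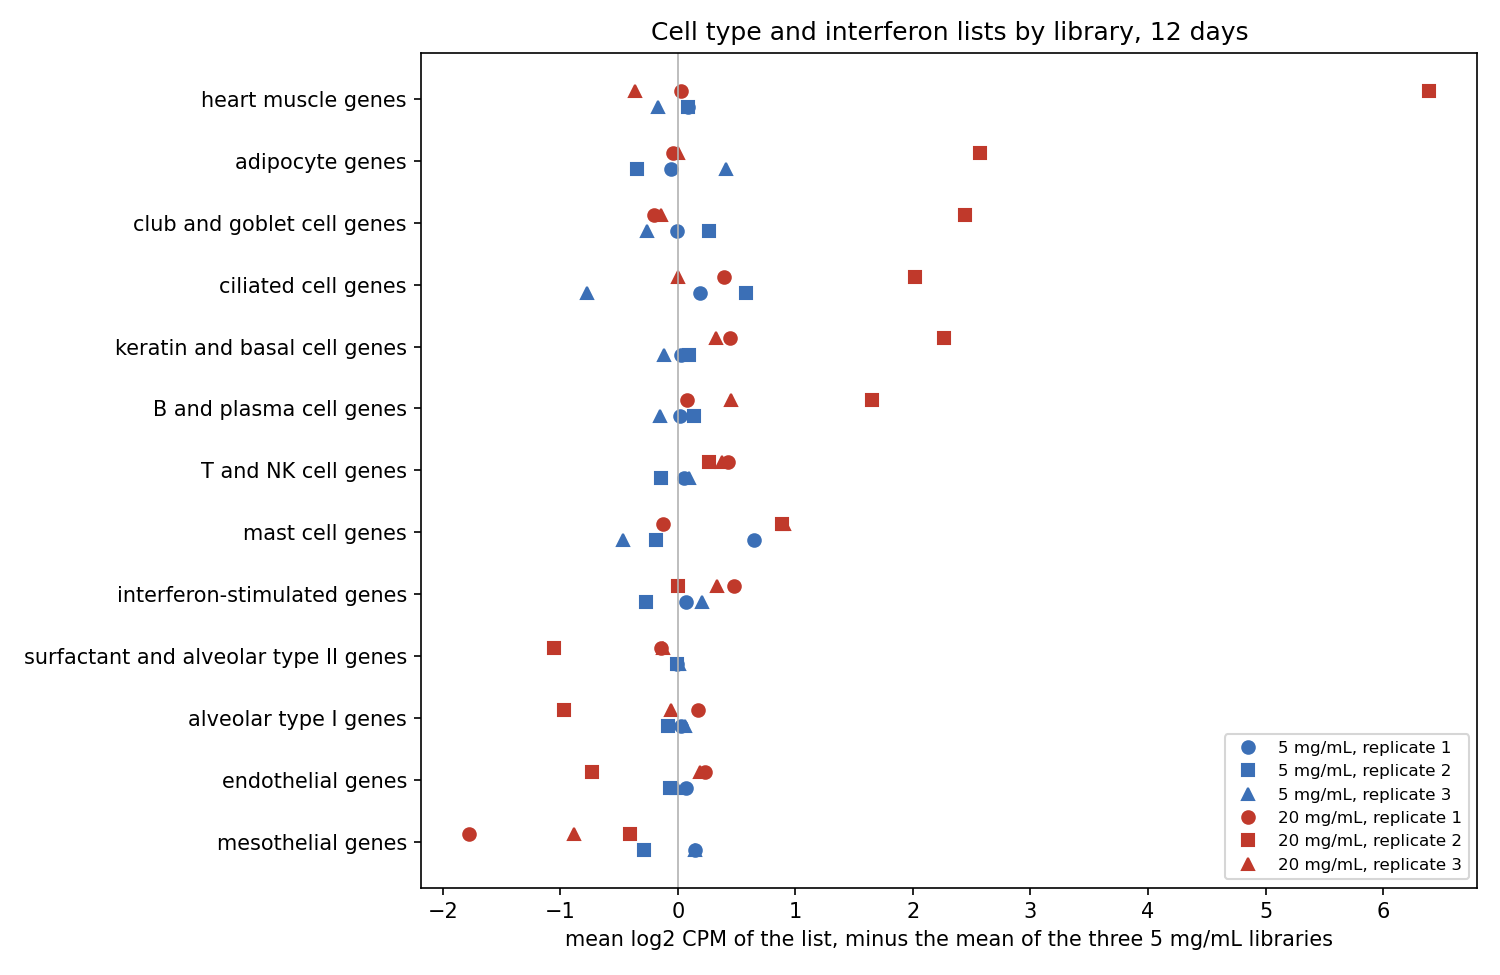
Mean log2 CPM of 13 gene lists in each library of 5 and 20 mg/mL at 12 days (x axis, as the difference from the mean of the 5 mg/mL libraries), with colour for dose and symbol for replicate. Replicate 2 of 20 mg/mL lies far to the right for heart muscle genes (7.15 as a level), while all 3 libraries of 20 mg/mL lie to the left of the 5 mg/mL libraries for mesothelial genes.

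Genes that smoke constituents are known to act on did not differ detectably between the doses. Cyp1a1, the xenobiotic-metabolizing target of the aryl hydrocarbon receptor, had 3.83, 10.1 and 5.79 CPM at 5 mg/mL and 13.1, 10.7 and 6.35 CPM at 20 mg/mL (log2 fold change 0.61, 95% interval -0.97 to 2.19). Nqo1, a quinone reductase, had 45.4, 39.2 and 33.1 CPM and 41.4, 45.8 and 34.0 CPM (0.041, 95% interval -0.41 to 0.49). Hmox1, heme oxygenase 1, had 33.3, 63.9 and 70.8 CPM and 46.1, 34.1 and 63.8 CPM (-0.22, 95% interval -0.92 to 0.49). The doses overlapped for all 3 genes. Of 32 tested NRF2 genes 20 were higher with a median of 0.078 (0.049 without replicate 2). The 1 unadjusted p under 0.05 was that of the epoxide hydrolase gene Ephx1 (68.6, 67.5 and 35.3 CPM and 75.0, 131 and 106 CPM). Of all genes, 2.36% were higher at that p. The aryl hydrocarbon receptor list, which also holds the receptor gene Ahr and its partner gene Arnt, had 7 tested genes of 12 listed. Cyp1a2, Cyp1b1, Ahrr and Ugt1a6 did not pass the filter on low counts. Of the 7, 6 were higher with a median of 0.041, and without replicate 2 this was 3 of 7 with a median of -0.0045.

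Single inflammatory genes mostly overlapped between the doses as well. The cytokine gene Il1b had 38.5, 45.7 and 38.4 CPM at 5 mg/mL and 28.3, 43.5 and 51.6 CPM at 20 mg/mL, a log2 fold change of 0.013. Ccl2, a monocyte attractant, had 13.3, 1.66 and 10.5 CPM and 4.75, 17.1 and 10.9 CPM, and Mmp12, the macrophage elastase, 2.04, 8.29 and 6.53 CPM and 3.56, 12.1 and 2.44 CPM. The exception among those named was the adhesion molecule gene Icam1, at 446, 395 and 399 CPM and 373, 184 and 309 CPM, with its lowest value in replicate 2. Of 19 cytokine and NF-kappaB genes 12 were lower, with a median of -0.28 (-0.15 without replicate 2).

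Cytosolic ribosomal protein genes and oxidative phosphorylation genes lay slightly above 0. Of 46 ribosomal protein genes 40 were higher with a median of 0.14 and 0 unadjusted p under 0.05, and of 40 oxidative phosphorylation genes 30 were higher with a median of 0.12, also with 0. Without replicate 2 the medians were 0.15 and 0.061. Most members overlapped between the doses. Without overlap, 4 ribosomal protein genes were higher, and 4 oxidative phosphorylation genes were higher and 1 lower. Over all genes, 5.35% were higher and 5.24% lower without overlap. At 6 days 2 of the 46 and 7 of the 40 were higher, with medians of -0.40 and -0.28.

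**Figure D4:**
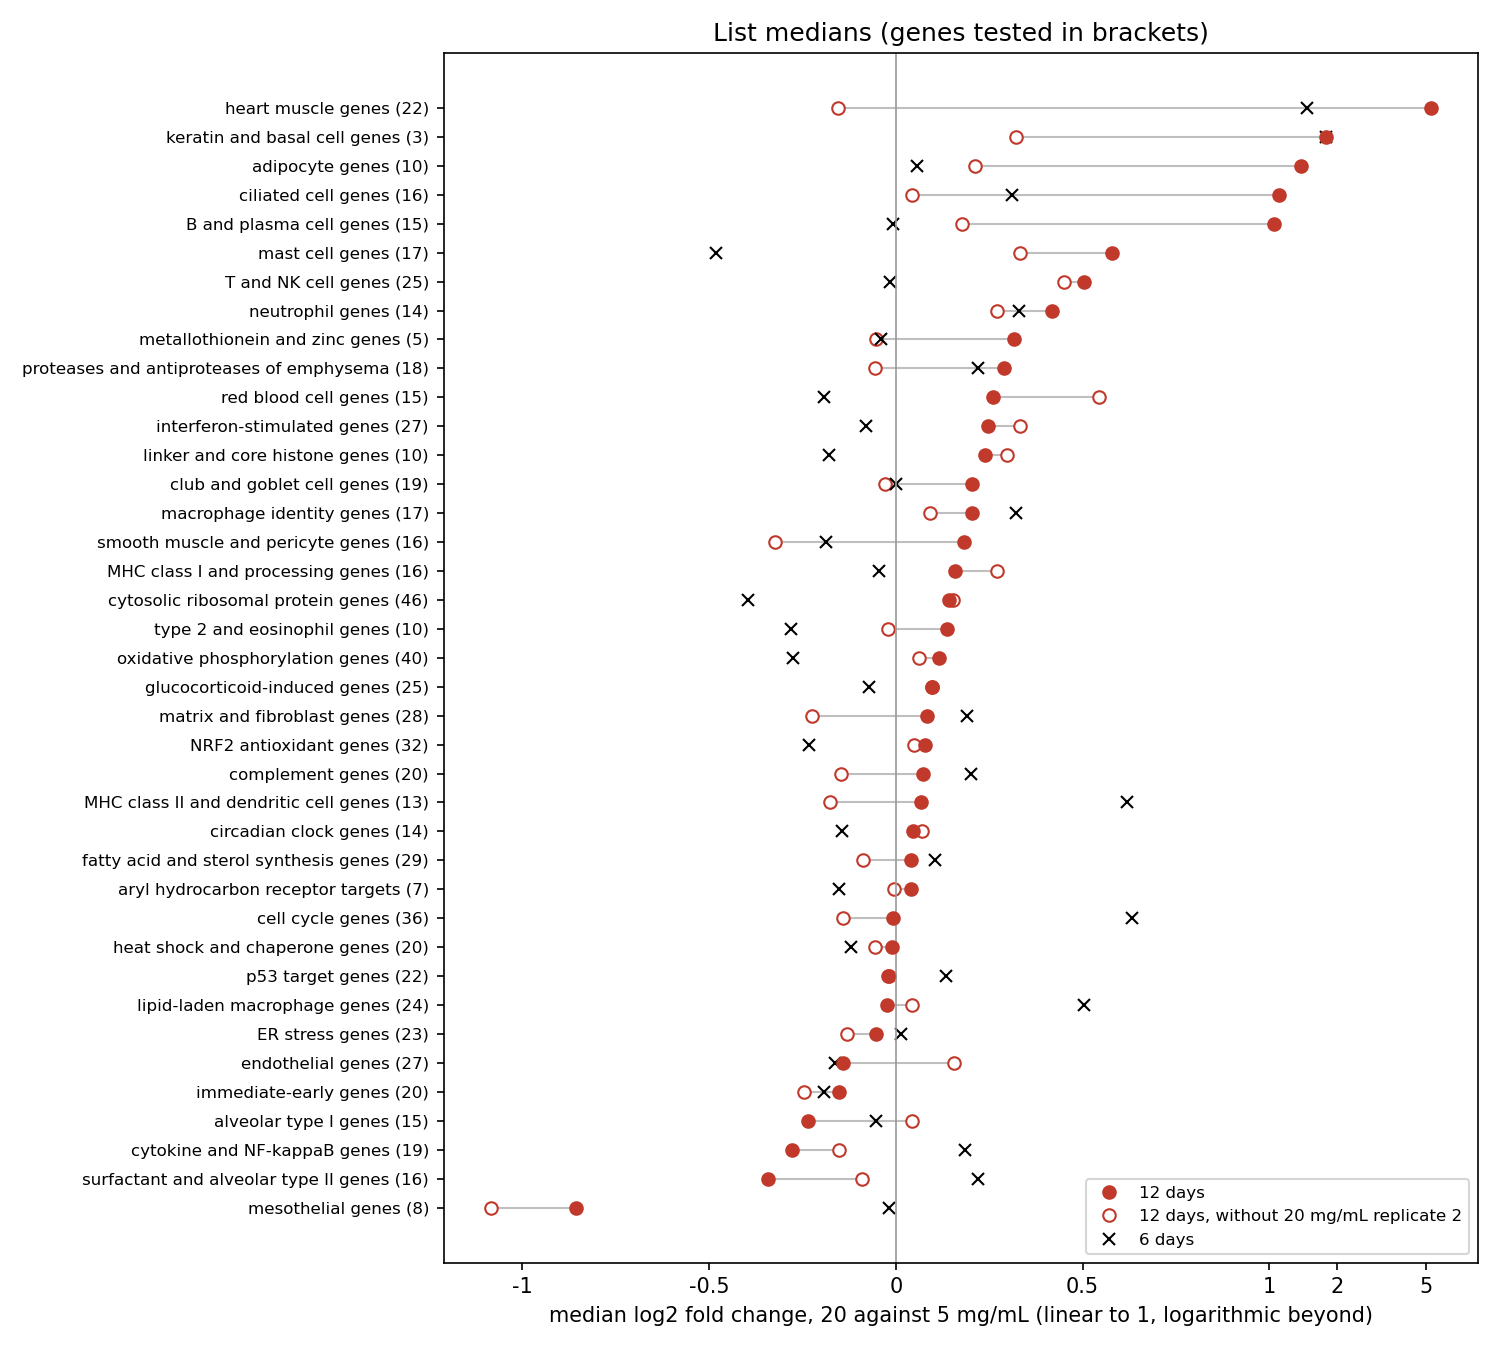
Median log2 fold change of 20 against 5 mg/mL for 39 gene lists (x axis, linear to 1 and logarithmic beyond), at 12 days with all libraries, at 12 days without replicate 2 of 20 mg/mL, and at 6 days. The mesothelial list is the lowest at 12 days with (-0.86) and without (-1.39) that library, and the heart muscle list moves from 5.24 to -0.16.

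The same doses were also compared at 6 days, in libraries that share no sample with those of 12 days. There 0 genes passed the adjusted threshold in edgeR, and 805 (7.05%) had an unadjusted p under 0.05, 463 of them higher (4.05%) and 342 lower (2.99%). Of the 270 genes higher at 12 days, 132 (48.9%) were also higher at 6 days, where 49.4% of all genes were. Of the 138 lower genes, 39 (28.3%) were also lower at 6 days, where 50.6% of all genes were. The difference between the days was tested as an interaction, in which 0 genes passed and 906 (7.93%) had an unadjusted p under 0.05. Zbtb16 had a log2 fold change of 1.91 at 6 days (unadjusted p = 0.0582 in edgeR), which differed from that at 12 days by 2.08 (SE 1.35). Its 6-day levels were 0.491, 3.00 and 49.3 CPM at 5 mg/mL and 65.2, 63.4 and 64.6 CPM at 20 mg/mL, with no overlap. Replicate 3 of 5 mg/mL was far above the other replicates of that dose. Fkbp5 and Angptl4 had 0.27 and -0.11 at 6 days.

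Among the genes with an unadjusted p under 0.05 on both days, 11 were higher and 3 lower on both, 11 were higher at 12 days and lower at 6 days, and 21 were lower at 12 days and higher at 6 days. At 6 days 4.05% of all genes were higher and 2.99% lower at that p. Across all genes, the log2 fold changes of the days had a Spearman rho of -0.22 and a Pearson r of 0.062. Spidr, Cebpd and Irx1 were the 3 lower on both days. The 11 higher on both included airway genes that peaked in replicate 2 at 12 days. Bpifa1 had a log2 fold change of 5.44 at 6 days, with 149, 0.121 and 466 CPM at 20 mg/mL against 6.08, 5.61 and 1.96 CPM at 5 mg/mL, so that replicates 1 and 3 of 20 mg/mL were high and replicate 2 was not. Krt15 had 2.84 at 6 days, with 15.6, 4.83 and 29.1 CPM against 4.12, 0.783 and 1.78 CPM, and Tmc5 had 2.30. Mcpt1, a mast cell protease, had 4.63 at 12 days (1.24 without replicate 2) and 6.41 at 6 days. The mast cell list as a whole was mostly lower at 6 days, with 4 of 17 members higher and a median of -0.48. The heart muscle list had 19 of 22 members higher at 6 days and a median of 1.47, where replicate 3 of 20 mg/mL held 26.5 CPM of Myh6 and the other 5 libraries of these doses none. Cebpd had a log2 fold change of -1.59 at 6 days and had the smallest adjusted p there, 0.0904. Klf10 was lower at 6 days (-0.62) and higher at 12 days, a difference of 1.53 (SE 0.38, unadjusted p = 0.000493, adjusted p = 0.588 in edgeR). Txk had opposite signs as well, with -1.19 at 6 days and 1.32 at 12 days. Lower at 12 days and higher at 6 days were S100a11 (0.67 and -0.97), Fetub (0.87 and -0.93) and, from epithelium, the chloride channel gene Cftr (0.98 and -0.76), the tight junction gene Cldn18 (0.65 and -0.65) and the surfactant lipid enzyme gene Lpcat1 (0.78 and -0.69). For these epithelial genes replicate 2 was the lowest of 20 mg/mL at 12 days, and without it the log2 fold changes were -0.55, -0.37 and -0.42. Median values of the T and NK cell list and the mesothelial list at 6 days were -0.017 and -0.018.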

How the data were processed

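RNA of rat lung was measured in 24 samples with a Lexogen QuantSeq kit, per the labels' protocols. Each sample's deposited file lists unnormalized read counts by gene symbol. Bowtie2, bedtools and the genome build rn6 are named, per the submitters' processing notes. Versions, annotation, filters and strand setting: not given in the sources used here. Each file had 17048 lines and 16881 distinct symbols. For a repeated symbol the line with the highest total was kept, and the 167 lines left out held 0.772% of the counts.

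Genes were filtered with filterByExpr, counts were scaled by TMM and 1 quasi-likelihood model of the 8 group means (16 residual degrees of freedom) was fitted with edgeR 4.0.16 in R 4.3.3. The common biological coefficient of variation was 0.335. Tests were two-sided, with Benjamini-Hochberg adjustment over the 11421 genes tested and a threshold of 0.05. Controls and 10 mg/mL libraries shared the estimate of spread but not the contrast. List levels are means of log2 CPM with a prior count of 2. The edgeR fit was also run on simulated counts, with an outcome that is not reported here.

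Genes named were the 12 smallest p each way with at least 1 CPM, unnamed models left out, up to 3 members of each of 39 lists with an unadjusted p under 0.05, and 12 set genes. Another set was named after its values were seen: the B cell marker Ms4a1, mesothelial, interferon, surfactant and glucocorticoid members, heart genes, Gp2, and the genes Ikzf3, Klf9, Txk, Cldn18 and Cftr among others. Some of the genes named by these rules are not reported here. The comparison and the lists were chosen with earlier results of these data known. Alternatives used limma 3.58.1, DESeq2 1.42.0, other scalings, filters and covariates, and each library left out.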

Additional observations from a re-analysis of the deposited data

How the results depend on the processing

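The comparison of 20 with 5 mg/mL at 12 days kept 0 calls in edgeR under every scaling, filter, covariate and left-out library tried, while DESeq2 called 6 genes and limma voom 1. The number of genes with an unadjusted p under 0.05, 408, was 175 in a test against a 1.5-fold change and ranged from 234 (without replicate 2 of 20 mg/mL) to 696 (without replicate 1 of 20 mg/mL). At 6 days DESeq2 called 9 genes, the fit with the number of detected genes as covariate 1, and the fits without 1 library 0 to 7 (7 without replicate 3 of 5 mg/mL). Its 805 genes at an unadjusted p under 0.05 became 355 in a fit of the compared groups only, 172 against a 1.5-fold change, and 428 to 1873 without 1 library. For the difference between days, DESeq2 called 1 gene, Slc26a4, and the 906 genes became 357 against a 1.5-fold change and 553 to 1772 without 1 library. The cause was not tested. The replicate number as a block gave 0 calls and 440 genes at an unadjusted p under 0.05. Whether the numbers pair the libraries cannot be decided from 3 libraries per dose. Deviations of same-numbered libraries of the doses correlated at -0.058, 0.066 and -0.028, and 1 of the 3 libraries of 20 mg/mL correlated best with its own number.

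Of 105 named genes, 88 kept their direction under every one of the 16 alternatives that gave them a value. Not every gene had a value under each alternative. Myl7, for example, had no reads left without replicate 2. In limma voom the log2 fold change turned for Bpifa1 (-1.33), Ccl20 (-0.35), Actc1 (-0.060), Nqo1 (-0.016), Mmp12 (-0.22) and Il1b (-0.080). Il1b also turned with upper-quartile scaling (-0.018) and Mmp12 with the replicate block (-0.10). Without 1 library, log2 fold changes ranged across 0 for Bpifa1 (-2.55 to 7.74), A2m (-1.56 to 4.70), Tnni3 (-1.29 to 5.69), Ccl20 (-1.15 to 3.74), Mmp12 (-0.91 to 0.48), Actc1 (-0.89 to 2.98), Sftpc (-0.69 to 0.00061), Krt19 (-0.42 to 0.10), Col1a1 (-0.36 to 2.20), Il1b (-0.19 to 0.22), Klf9 (-0.16 to 0.34), Tsc22d3 (-0.15 to 0.32), Cfd (-0.14 to 1.76), Ccl2 (-0.13 to 0.84), Sgk1 (-0.12 to 0.36), Nqo1 (-0.068 to 0.17) and Scgb3a1 (-0.029 to 7.08). Counts of a few reads per library, as for Cenpt and Mcpt1, limit the ratios of low genes.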
